A study of Gallus gallus with 45 samples.

Results

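The jejunal transcriptome of broiler line Y was compared with that of broiler line X at day 0, the day of hatch. The comparison rests on pools 2 to 8 of each line, chosen by their line and age labels, which gave 7 arrays of line Y and 7 of line X out of 45 arrays in the series. Every array held RNA of whole jejunum from 1 pool of 10 birds, so that differences between single birds were averaged within a pool. The study also sampled line Y (7 and 8 pools) and line X (8 and 8 pools) at day 4 and day 16, and these 31 arrays served to estimate the spread and to follow the genes named at hatch. Lines Y and X are genetically different broiler lines that are known here by letter only. They were hatched in the same hatchery, were reared in separate pens on the same feed and carried no treatment or introduced allele.

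The titles of line Y pools 2 to 8 name day 4, whereas their age label reads 0 days and the supplement of the paper lists these pool numbers at day 0, so that the age label was followed here. Over all kept probes, the line Y arrays of day 0 had a mean correlation of 0.989 with each other, 0.952 with line X at day 0, 0.948 with line Y at day 4 and 0.932 with line X at day 4. Each line and age occupied its own slide, and slide and line cannot be told apart. The labels do not say how the birds of a pool were selected, and p-values measure only the spread between the pools of a slide.

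At hatch the chick intestine turns from yolk lipid to feed. Enterocytes of the jejunum take up fat, amino acids and sugars, and villi lengthen while crypts form. Innate defence, such as defensins and lysozyme, is present in the young gut before lymphocytes have settled there in number, and the proteins of oxidant defence handle the load that comes with air breathing and with a lipid-rich start.

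The array is a single-colour Agilent design in which Cy3-labelled RNA binds short DNA probes, and all levels below are normalized log2 intensities of the deposited table. A gene level is the mean over its kept probes, levels of different genes are not comparable on this scale, and all differences are line Y minus line X with their standard error, so that 1 unit is a change by a factor of 2. Group levels are given as the median of 7 pools, with the lowest and highest pool in brackets. A gene was called different at a Benjamini-Hochberg adjusted p under 0.05 in limma and a fold change above 1.3, with all its kept probes in the same direction. The median raw intensity per array ranged from 197 to 262 in line Y and from 140 to 173.5 in line X, and 77.0 to 81.8 % of the probes on line Y arrays were above background, against 73.1 to 76.9 % on line X arrays. Saturated probes made up 0.819 to 1.06 % on line Y arrays and 0.640 to 0.782 % on line X arrays. The part of these differences in brightness in the results was not tested. The tissue label was met by its markers, since VIL1, FABP2 and APOA4, which mark the absorptive enterocyte, were saturated in all 14 pools, so that their levels cannot be compared.

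Of 3740 genes tested, 578 (15.5 %) were higher and 476 (12.7 %) lower in line Y, and the median difference over all genes was 0.03. At the level of single probes 4855 of 25527 (19 %) were higher and 4874 (19.1 %) lower. The 1054 genes called were 28.2 % of the genes tested, and the pools of the lines did not overlap in 689 of those called. A call by itself favours pools that do not overlap. The share without overlap over all genes tested was not counted. Among 2372 genes with 2 or more kept probes, all probes pointed in the same direction in 1191. Every probe passed both thresholds as higher in 122 of these genes (5.14 %) and as lower in 79 (3.33 %). In 848 genes no probe was called, in 1323 some but not all were, and in 162 genes probes were called in opposite directions. Genes with a single kept probe were called more often as lower, with 17.2 % higher and 20.6 % lower among 1368, against 14.5 % and 8.18 % among genes with 2 or more probes. The genes described first are those whose separate probes agree. A probe was kept when it passed a limit on dim signals in every array of at least 1 of 6 groups. No probe of NUDT7, IBA57, OVAL, WNT11 or LOC395551 passed it on all 14 day 0 arrays. The same held for MT4, EREG, TMBIM4 and CHIA. Of the genes described further below it held for PIWIL1, USP33, LMX1A, AvBD8, LECT2, CD86, CD28, CTLA4 and PTPRC. It also held for GZMA, LCP2, JCHAIN, CCR8, TNFSF15, IL8L2, CATH2 and RHAG. Such genes could enter through a group in which they were high, which favours a difference, and their p-values and pool ranges carry that limit.

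NUDT7 and NUDT19, hydrolases that in mammals degrade coenzyme A in peroxisomes, were both higher in line Y. NUDT7 had a median of 7.97 (7.22 to 8.36) in line Y pools, against 5.58 (5.37 to 5.83) in line X pools. All line Y pools lay above all line X pools, and the difference was 2.31 ± 0.14 (adjusted p = 1.01e-17). Its 2 probes gave 2.08 and 2.54. NUDT19 had a median of 8.06 (7.85 to 8.16) in line Y and 6.20 (5.79 to 6.66) in line X, again without overlap, a difference of 1.80 ± 0.10 (adjusted p = 1.61e-19) with probe values of 1.67 and 1.93.

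FGF19, the intestinal hormone that restrains bile acid synthesis in the liver, had a median of 8.70 (7.26 to 9.40) in line Y and 6.53 (5.69 to 7.49) in line X. The lowest line Y pool lay below the highest line X pool, and FGF19 was the only one of the 10 genes with the largest agreeing increases whose pools overlapped. Its difference was 2.01 ± 0.26 (adjusted p = 1.43e-08), and its 3 probes gave 1.56, 1.83 and 2.64.

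Genes of mitochondria and of nucleotide metabolism followed. IBA57, which takes part in the assembly of iron-sulphur clusters, had a median of 8.13 (7.71 to 8.28) in line Y and 5.71 (5.42 to 6.002) in line X. No pool of line X reached a pool of line Y (difference 2.40 ± 0.09, adjusted p = 2.71e-25). TMEM70, needed to assemble the mitochondrial ATP synthase, had a median of 10.11 (9.91 to 10.20) in line Y and 8.77 (8.64 to 8.95) in line X, with all pools apart and nearly equal probe values of 1.22 and 1.35 (adjusted p = 9.03e-18). ADK, the kinase that returns adenosine to AMP, differed by 1.31 ± 0.09 (adjusted p = 1.41e-15), and its lowest line Y pool stood at 9.81 against 9.04 in the highest line X pool. SH3GLB1, a membrane-curving protein of autophagy and of the mitochondrial surface, differed by 1.498 ± 0.20 (adjusted p = 2.43e-08) without overlap of the pools.

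DARS, the cytosolic aspartyl-tRNA synthetase, and FAM234B were also called with every probe. DARS had a median of 10.13 (9.77 to 10.52) in line Y and 5.87 (5.51 to 6.07) in line X. The pools were far apart, with a difference of 4.34 ± 0.15 (adjusted p = 5.87e-27), but the size was uneven over the probes, at 5.66 and 1.36 for 2 of them and larger still for the third, and the 2 probes with the large values were above background in 2 of 7 line X pools. FAM234B had 1 probe with a median of 9.405 (9.16 to 9.502) in line Y and 7.75 (7.44 to 8.24) in line X, a difference of 1.53 ± 0.11 (adjusted p = 3.55e-16), and 1 that was not well above background in any line X pool and at least 17.4-fold higher in line Y. For such bounds a dim pool was set to the lowest signal that counted as above background on its array, where its own signal was below it. Without the filter on dim probes, the probes of FAM234B no longer all pointed the same way, which a call requires, and its call was lost. RPL37, a protein of the large ribosomal subunit, differed by 2.59 ± 0.20 (adjusted p = 1.14e-14), but its brighter probe was saturated in 3 line Y pools and its dimmer probe was above background in 5 of 7 line X pools.

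The largest agreeing decrease was that of OVAL, the gene of the egg white protein ovalbumin. OVAL had a median of 5.54 (5.16 to 6.03) in line Y, against 7.49 (6.72 to 8.36) in line X. All line Y pools were lower, with a difference of -1.89 ± 0.24 (adjusted p = 1.37e-08) and probe values of -1.93 and -1.85. SLC24A2, a sodium-calcium-potassium exchanger, had a median of 7.96 (7.65 to 8.18) in line Y and 9.75 (9.26 to 9.86) in line X. Its pools did not overlap either, and it differed by -1.73 ± 0.11 (adjusted p = 3.12e-17).

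AvBD10, an avian beta-defensin, and LYZ, the lysozyme of egg white and of mucosal secretions, were both lower in line Y. AvBD10 had a median of 11.56 (11.06 to 12.10) in line Y and 13.38 (13.10 to 13.69) in line X. The highest line Y pool, at 12.10, stayed below the lowest line X pool, at 13.10, and the 3 probes gave differences of -1.57, -1.78 and -2.10 (adjusted p of the gene = 1.84e-08). LYZ had a median of 10.23 (10.05 to 11.50) in line Y and 11.71 (11.24 to 11.80) in line X. The highest line Y pool lay among the line X pools, and the difference was -1.13 ± 0.18 (adjusted p = 9.34e-07).

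Genes of signalling were also among the 10 with the largest agreeing decreases. WNT11, a ligand of the Wnt family, had a median of 5.92 (5.47 to 6.26) in line Y and 7.14 (6.63 to 7.62) in line X, with all pools apart and a difference of -1.23 ± 0.16 (adjusted p = 1e-08). RASD1, a small GTPase first found through its induction by glucocorticoids, differed by -1.20 ± 0.21 (adjusted p = 6.98e-06), ARL2BP, a partner of the GTPase ARL2, by -1.45 ± 0.08 (adjusted p = 8.2e-19), and both were without overlap. LOC395551, listed in RefSeq with the chemokine name CCL4 as a synonym, differed by -1.20 ± 0.19 (adjusted p = 8.13e-07), and its pools overlapped. LOC378902, listed with the tumour necrosis factor receptor name TNFRSF23, differed by -0.93 ± 0.20 (adjusted p = 0.000139).

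Some genes measured by a single probe also had large differences, with no other probe to set beside them. The following were chosen after their values were seen. MT4, a metallothionein, which binds zinc and copper, had a median of 12.44 (10.56 to 13.10) in line Y and 8.54 (6.69 to 9.65) in line X. The pools did not overlap despite their wide spread, and the difference was 3.47 ± 0.53 (adjusted p = 4.91e-07). EREG, epiregulin, a growth factor that binds the EGF receptor, had a median of 8.98 (8.38 to 9.41) in line Y and 5.27 (4.38 to 6.02) in line X. It was higher in all line Y pools, by 3.62 ± 0.26 (adjusted p = 1.37e-15), and above background in 6 of 7 line X pools. TMBIM4, a Golgi protein that guards against cell death, differed by 3.65 ± 0.37 (adjusted p = 2.61e-11).

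CHIA, the acidic chitinase of the stomach and gut, had a median of 4.25 (3.88 to 4.45) in line Y and 7.15 (6.80 to 7.82) in line X. All line Y pools were lower, by a difference of -3.10 ± 0.37 (adjusted p = 2.93e-09), and 3 of 7 were above background. The size depended on the background correction, and with an offset of 50 it was -1.62. Sizes of other dim genes also varied over the alternatives, with their calls kept wherever they were tested. NUDT7 ranged from 1.57 to 2.66, IBA57 from 1.63 to 3.32, EREG from 2.60 to 3.99 and OVAL from -2.01 to -1.215. For WNT11 the range was -1.39 to -0.80, and for BLB1, described below, -1.05 to -0.51. MERTK, a receptor through which macrophages take up dying cells, had a median of 7.79 (6.85 to 8.87) in line Y and 9.47 (9.22 to 10.49) in line X, with a difference of -1.68 ± 0.36 (adjusted p = 0.000132).

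**Figure D1:**
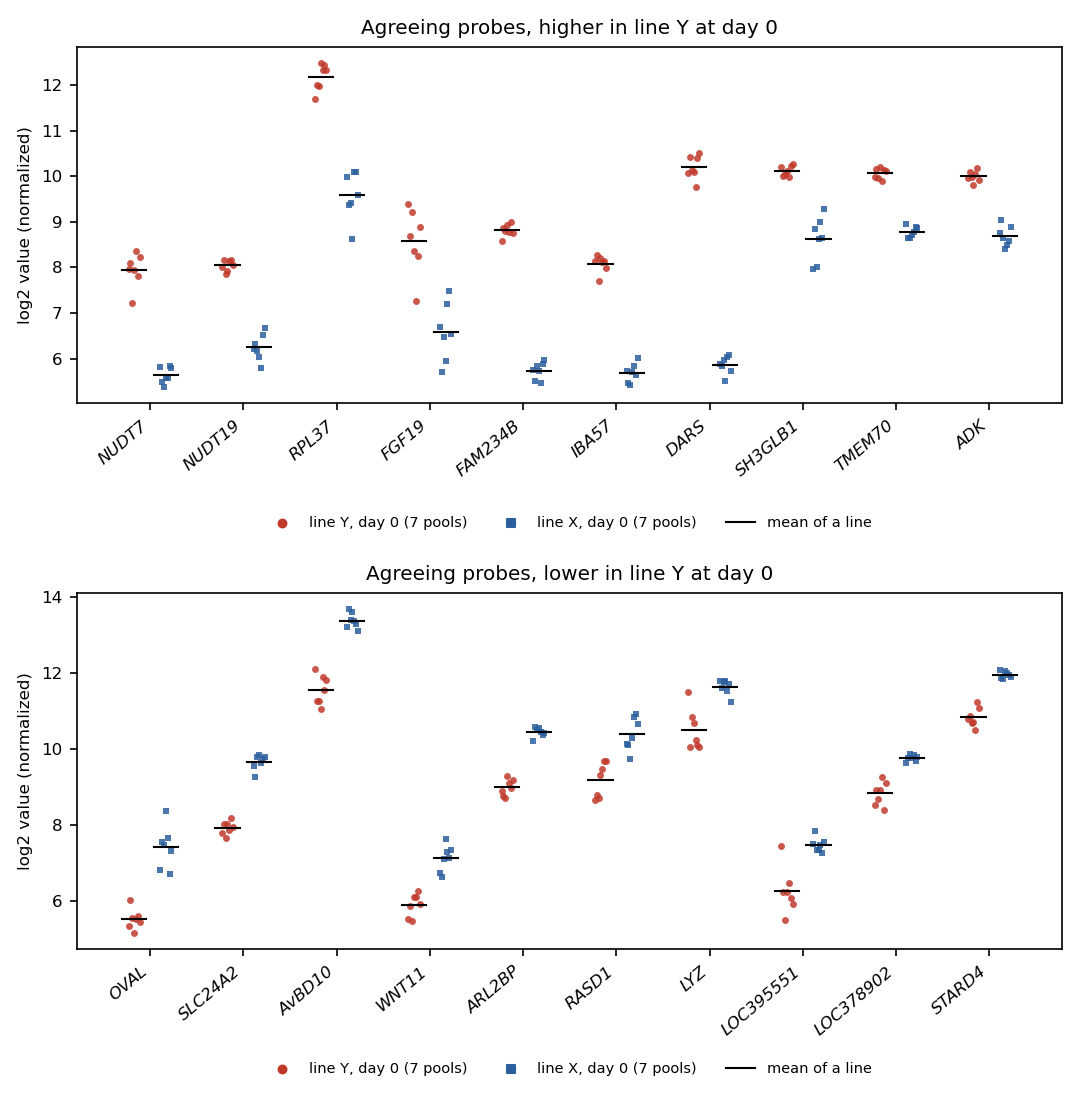
Normalized log2 level of each pool at day 0 for the 10 genes highest and the 10 genes lowest in line Y among those whose probes all passed, with line Y as red circles left of line X as blue squares and a bar at the mean of 7 pools. The pools of the lines overlap for FGF19, LYZ and LOC395551 and for none of the other genes shown. The level of FAM234B averages in a probe that was not above background in line X.

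Genes outside the rule on naming, chosen after their values were seen, add hormone receptors and signalling whose probes also agree. NR3C1, the glucocorticoid receptor, had a median of 7.55 (7.37 to 7.85) in line Y and 8.50 (8.31 to 8.73) in line X, while NR3C2, the mineralocorticoid receptor, had a median of 10.48 (10.19 to 10.63) in line Y and 9.44 (9.26 to 9.69) in line X. The pools of the lines were fully apart in both genes, in opposite directions, with -0.92 ± 0.13 for NR3C1 (adjusted p = 9.3e-08) and 0.98 ± 0.10 for NR3C2 (adjusted p = 2.41e-11), each over 3 probes. PRLR, the prolactin receptor, differed by 0.94 ± 0.11 over 4 probes (adjusted p = 6.75e-10), and DIO2, which activates thyroid hormone, by -0.53 ± 0.11 over 2 (adjusted p = 7.59e-05). CRY1, a repressor of the circadian clock, differed by 0.80 ± 0.09 (adjusted p = 1.31e-09). CKB, brain-type creatine kinase, had 5 probes, all higher in line Y, with a difference of 0.86 ± 0.09 (adjusted p = 1.41e-10).

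Besides WNT11, the Wnt ligand WNT4 was lower in line Y, at -0.99 ± 0.10 (adjusted p = 2.43e-11), as was the receptor FZD6, at -0.41 ± 0.08 (adjusted p = 5.29e-05). The call of FZD6 was lost at -0.26 with the processed signals of the scanner scaled to the 75th percentile of each array. This alternative, below called the 75th percentile, replaced both the correction for background and the quantile normalization. FZD6 was also below the fold threshold without line Y pool 3 or 4 (-0.36 and -0.38). The secreted inhibitor WIF1 was higher, at 0.94 ± 0.16 (adjusted p = 4.4e-06). AXIN2, also a gene of Wnt signalling, was called higher too, at 0.11 to 1.46 over the alternatives. Its call was lost with the brightest probe alone and with the limit passed on all 14 day 0 arrays (0.11 in both). With the 75th percentile AXIN2 was at 1.46 and not called either. WNT4, FZD6, WIF1 and AXIN2 were named after their values were seen. CDX4, a homeobox gene of the posterior embryo, differed by -0.94 ± 0.11 (adjusted p = 5.3e-10), with line Y pools of 6.82 to 7.42 against line X pools of 7.70 to 8.31. PIWIL1, known from germ cells, differed by -1.05 ± 0.15 (adjusted p = 1.88e-07), and IGF2BP3, an RNA-binding protein of fetal tissue, by -0.90 ± 0.22 (adjusted p = 0.000614). CDX4, PIWIL1 and IGF2BP3 were called lower with every probe and without overlap of the pools.

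Functions were described with lists of genes by counts and medians, beside the shares of all genes, without a test of the list. Those shares were 15.5 % higher and 12.7 % lower, and a list with shares near them did not stand out from all genes in number. The antioxidant and glutathione list had 13 of 42 tested genes higher (31.0 %) and 2 lower (4.76 %), with a median difference of 0.28. In 7 of its 32 genes with 2 or more probes every probe was higher, and in 0 every probe was lower. PRDX1, a peroxiredoxin that reduces hydrogen peroxide, had a median of 14.68 (14.40 to 14.92) in line Y and 12.87 (12.29 to 13.10) in line X. No pools overlapped, and the difference was 1.88 ± 0.10 (adjusted p = 2.06e-20), with probes at 2.87, 1.94 and 0.84.

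NFE2L2, the transcription factor NRF2 that switches on antioxidant genes, had a median of 9.53 (9.29 to 9.61) in line Y and 8.31 (8.28 to 8.60) in line X. It was higher in every line Y pool, by 1.09 ± 0.08 (adjusted p = 9.21e-15), with probe values of 0.45 and 1.72. SOD1, the cytosolic superoxide dismutase, was measured by 1 probe and had a median of 14.08 (13.996 to 14.28) in line Y and 12.95 (12.62 to 13.30) in line X, a difference of 1.19 ± 0.09 (adjusted p = 7.17e-15). SOD2, its mitochondrial counterpart, differed by 0.52 ± 0.07 over 2 probes (adjusted p = 1.11e-07), but was not called with the 75th percentile (0.15).

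Of the selenoproteins, SELENOP1, which carries selenium in plasma, differed by 0.77 ± 0.11 (adjusted p = 1.37e-07) and SELENOW by 0.62 ± 0.08 (adjusted p = 3.92e-08). Every probe of both was called, as was every probe of SELENOT, at 0.60 ± 0.08 (adjusted p = 3.43e-08). With the 75th percentile SELENOW and SELENOT were at 0.24 and 0.29 and not called. CYP2D6, a cytochrome P450 of drug metabolism, differed by 0.87 ± 0.09 over 3 probes (adjusted p = 1.72e-10), and ABCC4, an exporter of conjugated compounds, by 0.62 ± 0.11 (adjusted p = 4.49e-06). UGDH, which makes the UDP-glucuronic acid used in conjugation, was not on the list and differed by 0.90 ± 0.08 (adjusted p = 1.44e-13). GSTA4 was called at 0.92, but 1 probe was at least 4.24-fold higher while the other 2 gave 0.14 and 0.19. The 2 lower genes were retinal dehydrogenases, ALDH1A1 at -0.38 and ALDH1A2 at -0.46 (adjusted p = 0.0236 and 0.0494), and these calls were lost with any of 8 and any of 11 single pools left out, at the weakest with -0.28 for ALDH1A1 without line Y pool 7 and -0.31 for ALDH1A2 without line Y pool 4.

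Chaperones and folding enzymes had 13 of 53 genes higher (24.5 %), 3 lower (5.66 %) and a median of 0.23. CRELD2, a folding factor of the endoplasmic reticulum, had a median of 10.08 (10.05 to 10.25) in line Y and 9.03 (8.79 to 9.36) in line X. All pools were apart and 4 probes gave values between 0.83 and 1.33 (gene difference 1.03 ± 0.09, adjusted p = 1.9e-12). HSP90B1, the HSP90 of the endoplasmic reticulum, had a median of 11.88 (11.59 to 12.12) in line Y and 10.75 (10.63 to 10.89) in line X, also apart, with 4 probes between 0.63 and 1.95 and a gene difference of 1.09 ± 0.09 (adjusted p = 2.97e-14).

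In the chaperonin that folds actin and tubulin, TCP1 differed by 0.74 ± 0.08 (adjusted p = 5.65e-10) with both probes called. CCT4, CCT5 and CCT7 of the same complex were called at 0.47, 0.49 and 0.45. The disulphide isomerases PDIA3 and P4HB were called at 0.49 and 0.53, and the collagen chaperone SERPINH1 at 0.59 (adjusted p = 2.5e-07). The lower members were HSPA13 at -0.65 ± 0.07 (adjusted p = 1.06e-10), CDC37, which loads kinases onto HSP90, at -0.45, and the mitochondrial cyclophilin PPIF at -0.52. The calls of CCT4, CCT7, P4HB and HSPA13 were lost with the brightest probe of the gene alone (0.27, 0.18, 0.37 and -0.33), that of HSPA13 also without the filter on dim probes (-0.12), and those of CCT4 and PDIA3 with the 75th percentile (0.31 and 0.37).

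**Figure D2:**
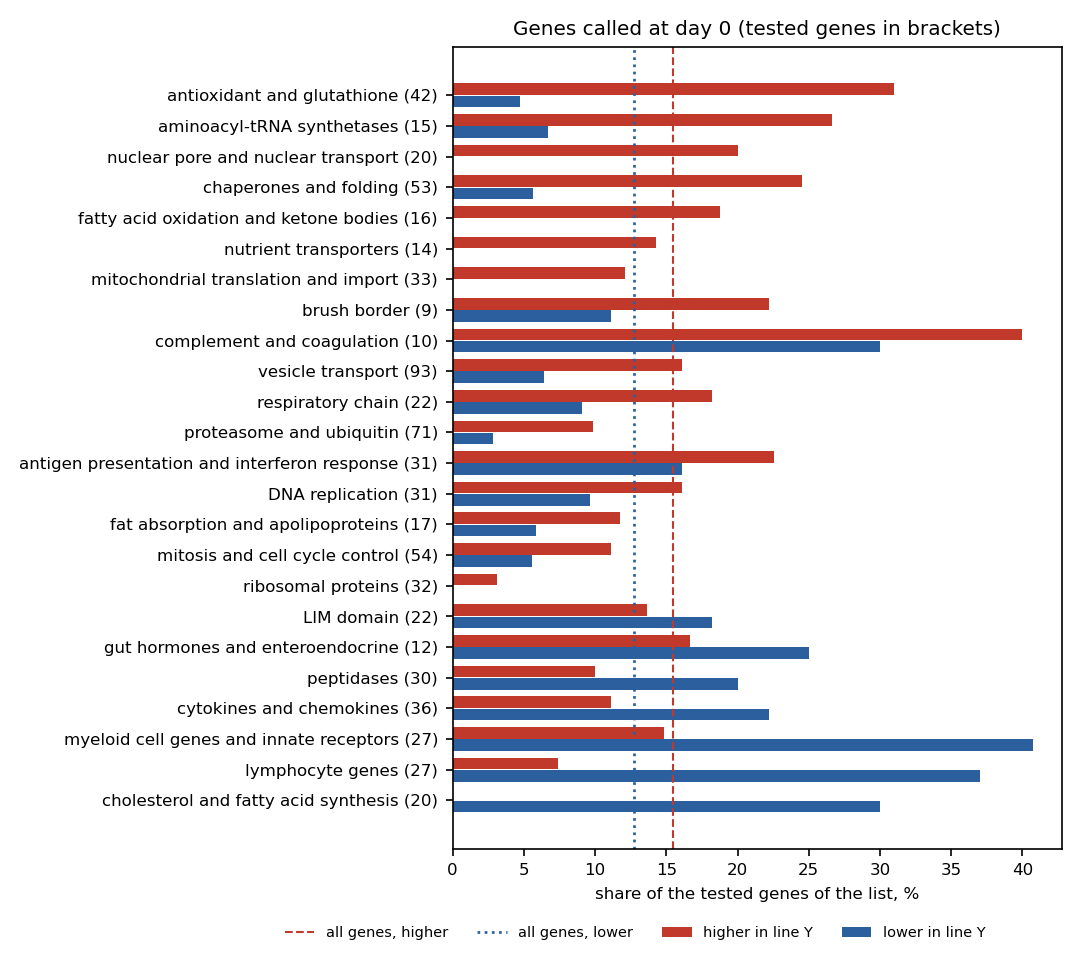
Share in percent of the tested genes of each function list called higher (red) or lower (blue) in line Y at day 0, with the number of tested genes in brackets and the shares over all genes as vertical lines at 15.5 % (higher) and 12.7 % (lower). Among these 24 lists red exceeds blue most for antioxidant and glutathione genes, at 31.0 % against 4.76 %, and blue exceeds red most for cholesterol and fatty acid synthesis, at 30.0 % against 0 %.

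Genes of protein synthesis differed in single members. Of 15 aminoacyl-tRNA synthetases 4 were higher and 1 lower (median 0.16). Besides DARS, the cysteinyl-tRNA synthetase CARS differed by 1.98 ± 0.14 (adjusted p = 7.57e-16) with probes at 0.80 and 3.16, and the mitochondrial enzyme EARS2 was lower, at -0.44 ± 0.09 (adjusted p = 0.0001, lost with the 75th percentile at -0.35). Of 32 ribosomal protein genes only RPL37 was called, and 13 were saturated in all pools of both lines. The median of the ribosomal list was -0.01, and with signals scaled to the 75th percentile 24 of the 32 were lower with a median of -0.55, so that no direction is given for this list.

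For the proteasome and ubiquitin list 7 of 71 genes were higher (9.86 %, against 15.5 % of all genes) and 2 lower (2.82 %, against 12.7 %), with a median of 0.08. With the brightest probe of each gene the median was -0.04. USP33, a deubiquitinating enzyme with 1 probe, differed by 1.86 ± 0.14 (adjusted p = 2.8e-15), COPS5, the catalytic subunit of the COP9 signalosome, by 1.03 ± 0.09 (adjusted p = 1.1e-13) with both probes called, and PSMA2, a subunit of the proteasome core, by 0.81 ± 0.09 (adjusted p = 7.03e-10) with 4 of 5 probes called. PSME4, a proteasome activator, was lower, at -0.49 ± 0.10 (adjusted p = 8.62e-05). PSMA2 was not called with the brightest probe (0.22) or the 75th percentile (0.70), nor PSME4 without the filter (-0.13) or with the 75th percentile (-0.34).

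Vesicle transport had 15 of 93 genes higher (16.1 %, against 15.5 % of all genes) and 6 lower (6.45 %, against 12.7 %), with a median of 0.13. VPS41, of the complex that tethers late endosomes to lysosomes, had a median of 8.75 (8.66 to 8.94) in line Y and 7.74 (7.31 to 7.87) in line X. Every line Y pool was higher, by 1.105 ± 0.10 on average (adjusted p = 2.5e-12). MCFD2, a cargo receptor between the endoplasmic reticulum and the Golgi, differed by 0.76 ± 0.10 (adjusted p = 1.23e-08), and TRAPPC2 by 0.98 ± 0.08, although its probes ran between 0.28 and 2.24. Nuclear transport had 4 of 20 genes higher and 0 lower (median 0.14, but -0.06 with the brightest probe of each gene). The higher genes included the importins KPNA1 at 1.74 ± 0.16 (adjusted p = 9e-13) and KPNA2 at 0.62 ± 0.14 (adjusted p = 0.000209). Without the filter KPNA1 was at 0.83, and its probes no longer all pointed the same way.

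Mitochondrial translation and import had 4 of 33 genes higher (12.1 %, against 15.5 % of all genes) and 0 lower, with a median of 0.20. With the brightest probe of each gene 2 were higher and 0 lower, and the median was -0.07. With the 75th percentile 2 were higher and 1 lower (median 0.11). MRPS6, a protein of the mitochondrial ribosome, differed by 1.17 ± 0.08 on its 1 probe (adjusted p = 1.13e-15), and MRPS11 by 0.49 ± 0.09 on both of its probes (adjusted p = 1.74e-05), a call lost with the 75th percentile (0.18). The respiratory chain had 4 of 22 higher and 2 lower (median 0.07), but 0 higher and 7 lower with the 75th percentile and 0 higher and 1 lower with the brightest probe of each gene, so that no direction is given. Of complex I, 2 subunits were called in opposite directions, NDUFA9 at 0.57 ± 0.08 (adjusted p = 6.13e-08) and NDUFS1 at -0.50 ± 0.08 (adjusted p = 9.68e-07), and with the brightest probe neither was (0.34 and -0.22). Fatty acid oxidation and ketone bodies had 3 of 16 higher and 0 lower (median 0.30), against 1 higher and 3 lower with the 75th percentile (median 0.15). BDH1A, named after the enzyme that interconverts ketone bodies, had a median of 12.33 (12.15 to 12.36) in line Y and 11.70 (11.51 to 11.97) in line X, with all 3 probes called, no overlap and a difference of 0.61 ± 0.06 (adjusted p = 1.1e-10).

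Cholesterol and fatty acid synthesis ran the other way, with 0 of 20 genes higher and 6 lower (30.0 %), and a median of -0.18. STARD4, which carries cholesterol between membranes, had a median of 10.79 (10.49 to 11.24) in line Y and 11.96 (11.84 to 12.09) in line X. Every pool of line Y was lower, and the difference was -1.12 ± 0.12 (adjusted p = 1.38e-10). SQLE, squalene epoxidase, had a median of 7.95 (7.31 to 8.16) in line Y and 8.90 (8.42 to 9.20) in line X on its 1 probe, also without overlap (difference -1.01 ± 0.12, adjusted p = 2.15e-09). FDFT1, the squalene synthase of the step before it, differed by -0.70 ± 0.10 (adjusted p = 8.23e-08), with probes at -1.18 and -0.23.

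MSMO1, a later enzyme of the cholesterol pathway, differed by -0.48 ± 0.12 (adjusted p = 0.000915), with all 4 of its probes called and some overlap of the pools. ACACA, the acetyl-CoA carboxylase that commits carbon to fatty acids, differed by -0.60 ± 0.12 on 1 probe (adjusted p = 3.55e-05), and the lipogenic factor THRSP by -0.60 ± 0.22 (adjusted p = 0.0172). With each pool left out in turn, 5 to 6 genes of the list were lower, and the call lost was that of THRSP without line X pool 6 (-0.48, adjusted p = 0.0612). THRSP was also not called with an offset of 50 (-0.46), nor ACACA without the filter (-0.20).

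Innate defence genes were called in both directions. In the list of myeloid cell genes and innate receptors 11 of 27 genes were lower (40.7 %) and 4 higher (14.8 %), and the median was -0.17. Of the 27 genes, 17 lay among the dimmest 1247 of all genes, of which 18.4 % were lower. Of the 11 lower genes, 7 were among these dim genes, and 6 had 1 probe. Without the filter on dim probes 42 genes of the list were tested, 9 lower and 6 higher, with a median of 0.02. In whole tissue, fewer cells of a type and less RNA per cell cannot be told apart. TLR4, the receptor for lipopolysaccharide, had a median of 8.06 (7.60 to 8.14) in line Y and 8.86 (8.28 to 9.05) in line X on 1 probe. All pools of line Y were lower (difference -0.82 ± 0.10, adjusted p = 1.45e-09). TLR1B differed by -0.48 ± 0.10 (adjusted p = 8.4e-05) with 3 of 3 probes called, and TLR1A, TLR3 and TLR7 were called at -0.46, -0.43 and -0.50, that of TLR3 not without line Y pool 5 (-0.36). The call of TLR1B was lost without the filter (-0.16), that of TLR1A with an offset of 50 (-0.32) or the brightest probe (-0.37) and that of TLR3 with the 75th percentile (-0.33).

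CD86, a costimulatory molecule of antigen-presenting cells, differed by -0.95 ± 0.12 (adjusted p = 1.2e-08), and the cathelicidin CATHB1 by -0.86 ± 0.18 (adjusted p = 6.05e-05), each on 1 probe, but CD86 was not called without the filter (-0.43). The 4 higher genes were 2 other cathelicidins, CATH1 at 0.56 and CATH2 at 1.06 (adjusted p = 0.0453 and 0.0293, lost with any of 10 and any of 4 single pools left out), the antimicrobial peptide LEAP2 at 0.66 ± 0.23 (adjusted p = 0.0153) and the Fc receptor chain FCER1G at 0.58 ± 0.12 (adjusted p = 6.16e-05). With line X pools 3 and 5 and line Y pool 4 left out together, a setting added after the data were seen, 1 gene of the list was called higher, and LEAP2 was not called with the 75th percentile either (0.30). Outside the list, the defensin AvBD8 was higher, at 0.73 ± 0.16 (adjusted p = 0.000254), opposite to AvBD10, and the neutrophil attractant LECT2 at 0.74 ± 0.18 (adjusted p = 0.000543), and pools overlapped in both. Without the filter AvBD8 was not called (0.38).

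Lymphocyte genes were mostly lower or not called. Of 27 tested genes 10 were lower (37.0 %) and 2 higher (7.41 %), with a median of -0.33. In 0 of the 9 genes with 2 or more probes did every probe pass, and 7 of the 10 lower genes had 1 probe. Of the 27 genes, 21 lay among the dimmest 1247 of all genes, of which 18.4 % were lower, against 12.04 % at middle and 7.70 % at bright levels. CD5, a surface protein of T cells, had a median of 7.01 (6.403 to 7.32) in line Y and 8.26 (7.90 to 8.61) in line X. The pools did not overlap, and the difference was -1.28 ± 0.13 (adjusted p = 7.41e-11). CD28, the costimulatory receptor of T cells, had a median of 6.401 (6.03 to 6.71) in line Y and 7.41 (6.49 to 7.54) in line X. The lowest line X pool, pool 3 at 6.49, fell among the line Y pools, and the other line X pools lay above them (difference -0.89 ± 0.13, adjusted p = 1.01e-07). Both calls were lost without the filter on dim probes, at -0.51 for CD5 and -0.44 for CD28, when their probes no longer all pointed the same way. With probes kept only where all 14 arrays passed the limit, 13 genes of the list were tested, of which 0 were higher and 5 lower. Without the filter 42 genes of the list were tested, 8 lower and 3 higher, with a median of -0.11. With an offset of 50, 7 genes were lower and 2 higher, with a median of -0.15.

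CTLA4, which restrains T cells, differed by -0.93 ± 0.19 (adjusted p = 5.46e-05), IRF4, a transcription factor of activated lymphocytes, by -0.97 ± 0.11 (adjusted p = 4.03e-10) and GATA3 by -0.74 ± 0.10 (adjusted p = 4.25e-08). PTPRC, the common leukocyte antigen CD45, differed by -0.48 ± 0.10 (adjusted p = 5.84e-05), and BCL6, of germinal centre B cells, by -0.63 ± 0.10 (adjusted p = 1.36e-06). PTPRC was not called with an offset of 50 (-0.29) or the 75th percentile (-0.26), nor BCL6 without the filter (-0.47) or with the brightest probe (-0.32). PIGR, the receptor that carries immunoglobulin across the epithelium and is made by epithelial cells, differed by -0.94 ± 0.11 (adjusted p = 1.8e-09). JCHAIN, of secreted immunoglobulin, is counted among the lower genes, but its probe was not well above background in any pool of either line. Higher in line Y were GZMA, a granule protease of killer cells, at 1.29 ± 0.16 (adjusted p = 6.04e-09), and the signalling adaptor LCP2 at 0.98 ± 0.10 (adjusted p = 2.65e-11). Neither GZMA nor LCP2 had a probe past the limit on dim signals on all 14 day 0 arrays. Beyond the list, STAT4, which acts in T cells after interleukin-12, differed by -0.77 ± 0.11 (adjusted p = 2.08e-07), STAT5A by -0.50 ± 0.11 (adjusted p = 0.000226) and the chemokine receptor CCR8 by -0.60 ± 0.18 (adjusted p = 0.00495), with both probes of each called lower. Without the filter STAT5A and CCR8 were not called (-0.34 and -0.30), nor was CCR8 with an offset of 50 (-0.26).

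In the list of antigen presentation and interferon response 7 of 31 genes were higher and 5 lower, with a median of 0.07. The class I genes that were called were higher and the class II genes that were called were lower. B2M, the light chain of class I molecules, differed by 0.61 ± 0.10 (adjusted p = 4.18e-06) with 3 of 3 probes called, 1 of them not above background in any line X pool and at least 1.43-fold higher, the class I heavy chain BF2 by 0.56 ± 0.10 (adjusted p = 5.29e-06), and the peptide transporter genes TAP1 and TAP2 by 0.45 and 0.42. TAP1 was not called without line X pool 5 or 7 and TAP2 without any 1 of 4 pools, at the weakest with 0.38 and 0.34. With the brightest probe neither was called (0.22 and 0.01), nor with an offset of 50 (0.23 and 0.33). BLB1, a class II beta chain, had a median of 5.60 (5.38 to 5.94) in line Y and 6.55 (6.06 to 6.66) in line X. Line Y was lower in every pool, by a difference of -0.83 ± 0.15 (adjusted p = 6.81e-06). DMB2, which loads peptides onto class II molecules, had a median of 10.47 (10.29 to 10.82) in line Y and 11.60 (11.34 to 11.74) in line X on 1 probe, likewise apart (difference -1.03 ± 0.11, adjusted p = 2.63e-10). Not called were the class I heavy chain BF1 at 0.48, whose probes disagreed, the tapasin gene TAPBP at 0.24, and CD74 and DMA of the class II pathway at -0.10 and -0.19. BG8, of the B-G family in the same gene region, differed by -1.36 ± 0.24 (adjusted p = 7.93e-06), and line Y pool 3, at 11.98, lay well under the line Y median of 13.79. Without the filter BG8 was at -0.86 and not called. Families such as B-G and class II have similar members, and which of them bound these probes was not tested. Of the genes that respond to interferon, EIF2AK2, the RNA-activated kinase PKR, was higher, at 0.86 ± 0.12 (adjusted p = 7.12e-08), and MX1 was lower, at -0.56 ± 0.23 (adjusted p = 0.0398). The call of MX1 was lost in 14 of 22 alternatives. It was at the weakest with the 75th percentile (-0.32) and, of the single pools left out, without line Y pool 4 (-0.38).

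Among cytokines and chemokines 8 of 36 were lower and 4 higher (median -0.17), and 4 were lower with line X pools 3 and 5 and line Y pool 4 left out. TNFSF15, a member of the tumour necrosis factor family, differed by -0.74 ± 0.14 (adjusted p = 1.7e-05) with 3 of 3 probes called, and CXCL14, a chemokine of epithelia, by 0.79 ± 0.12 (adjusted p = 5.54e-07) with 2 of 2. The receptor chain IL6R differed by -0.92 ± 0.12 (adjusted p = 3.6e-08) and NFKB2 by -0.87 ± 0.11 (adjusted p = 8.64e-09). CCL4 had a median of 6.77 (6.36 to 7.06) in line Y and 7.37 (6.85 to 11.44) in line X. Pool 5 alone made the line X maximum of 11.44, and the call (difference -1.07 ± 0.45, adjusted p = 0.042) was lost without it, at -0.47 (adjusted p = 0.246), and without any 1 of 5 other pools. IL8L2, an interleukin-8 chemokine, differed by -1.06 ± 0.43 (adjusted p = 0.0369) but was above background in 2 line Y pools and 5 line X pools, and its call was lost without any 1 of 6 pools, at the weakest with -0.77 without line X pool 5.

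**Figure D3:**
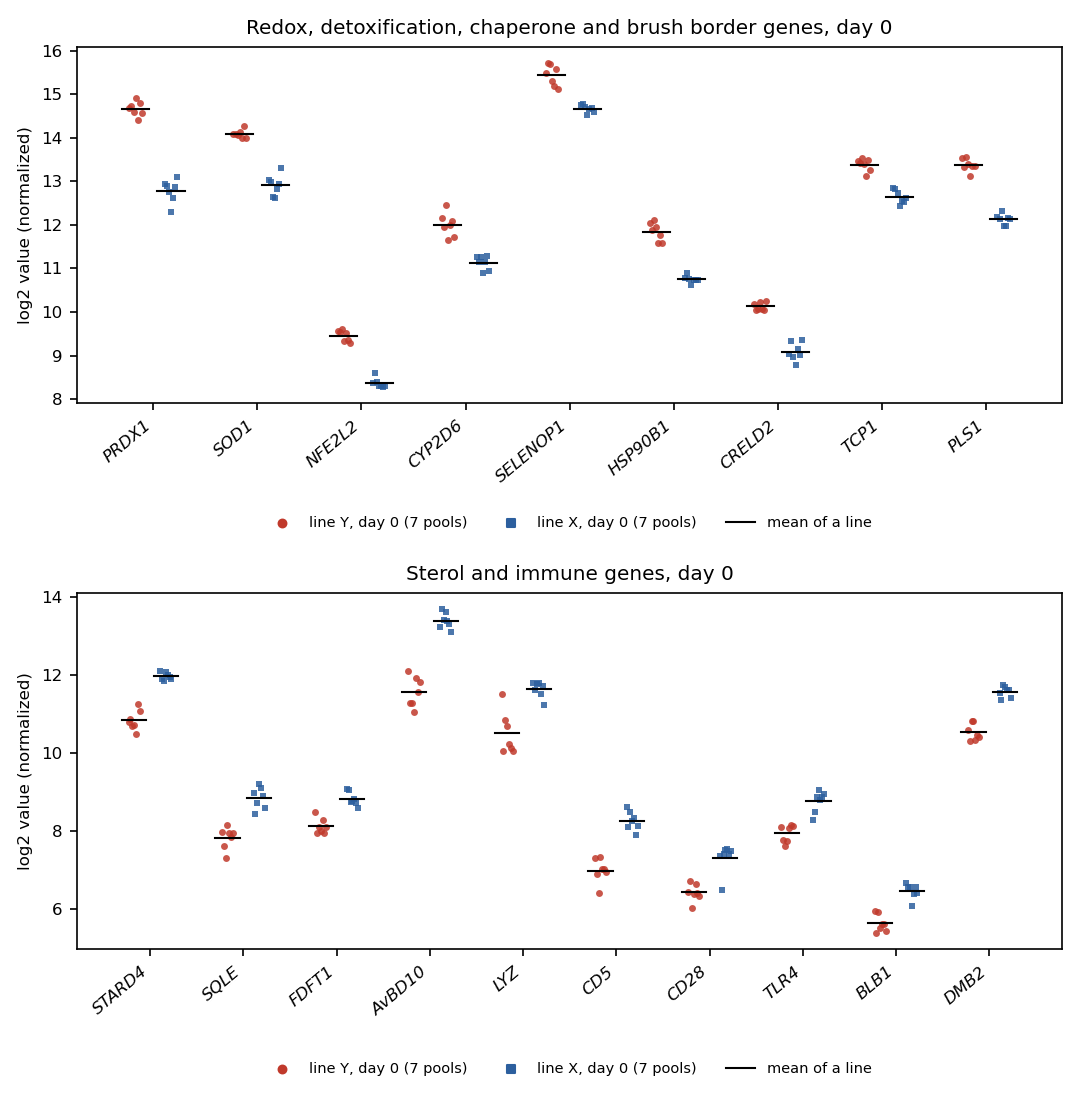
Normalized log2 level of each pool at day 0 for genes of oxidant defence, folding and the brush border that were higher in line Y and for genes of sterol synthesis and defence that were lower, with line Y as red circles left of line X as blue squares and a bar at the mean of 7 pools. PRDX1 separates the lines by a difference of 1.88 and AvBD10 by -1.82, and LYZ and CD28 are examples with overlapping pools.

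Complement and coagulation had 4 of 10 tested genes higher and 3 lower, with a median of -0.30, and 3 higher and 4 lower with the 75th percentile. CFI, the protease that inactivates complement C3b, had a median of 7.71 (7.51 to 7.80) in line Y and 6.76 (6.05 to 6.99) in line X. All line Y pools were higher, by 1.00 ± 0.11 (adjusted p = 2.68e-10), on both probes. F2, prothrombin, differed by 2.23 ± 0.13 (adjusted p = 9.72e-19) on its 1 kept probe, but was at 0.89 and not called without the filter, when its probes no longer all pointed the same way. Coagulation factors F9 and F10 were lower, at -1.45 ± 0.17 (adjusted p = 1.45e-09) and -0.60 ± 0.10 (adjusted p = 1.96e-06).

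Genes of digestion and absorption differed little in number. The brush border list had 2 of 9 genes higher and 1 lower. PLS1, the plastin of the microvillus core, had a median of 13.36 (13.11 to 13.56) in line Y and 12.15 (11.96 to 12.32) in line X on 1 probe, without overlap (difference 1.25 ± 0.10, adjusted p = 1.47e-14). DPP4, a peptidase of the brush border, was called at 1.06, but 1 of its 3 probes was not above background in any line X pool and at least 4.87-fold higher in line Y, and the others gave 0.56 and 0.07. Nutrient transporters had 2 of 14 higher (14.3 %, against 15.5 % of all genes) and 0 lower (median 0.14). The higher ones were SLC7A9, the light chain of the cystine and dibasic amino acid transporter, at 0.54 ± 0.09 (adjusted p = 1.57e-06, lost with the 75th percentile at 0.15) and the folate transporter SLC46A1 at 0.60 ± 0.11 (adjusted p = 2.4e-05). In fat absorption 2 of 17 were higher and 1 lower (median 0.00), while with the 75th percentile 0 were higher and 4 lower (median -0.24). FABP4, a fatty acid carrier of fat cells and macrophages, was the lower one, at -0.81 ± 0.24 with 3 of 3 probes called (adjusted p = 0.00468), and was not called with line X pools 3 and 5 and line Y pool 4 left out together (-0.61, adjusted p = 0.0625).

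Gut hormones had 2 of 12 higher and 3 lower, with VIP at 0.57 ± 0.11 (adjusted p = 2.59e-05, lost with the brightest probe at 0.35), GAL at -0.40 ± 0.10 (adjusted p = 0.000469, below the fold threshold without line Y pool 3 or line X pool 7 or 8, at -0.38 to -0.37) and ISL1, a LIM homeobox factor of endocrine cells and neurons, at -0.55 ± 0.16 (adjusted p = 0.00366). The LIM domain list had 3 of 22 higher and 4 lower, of which LMX1A differed by 1.25 ± 0.13 (adjusted p = 1.5e-10) and LMO2 by -1.39 ± 0.16 (adjusted p = 1.3e-09), each on 1 probe, and LMX1A was at 0.61 and not called without the filter. Peptidases had 3 of 30 higher and 6 lower (median 0.16, but -0.05 with the brightest probe of each gene), with the apoptotic protease CASP6 at 0.99 ± 0.10 (adjusted p = 1.04e-10) and the metalloproteinase inhibitor TIMP2 at -0.61 ± 0.15 (adjusted p = 0.000724).

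DNA replication had 5 of 31 genes higher (16.1 %) and 3 lower (9.68 %), and mitosis and cell cycle control 6 of 54 higher (11.1 %) and 3 lower (5.56 %). RFC4, a subunit of the clamp loader, differed by 0.69 ± 0.08 (adjusted p = 2.88e-09) and PCNA, the sliding clamp, by 0.53 ± 0.11 (adjusted p = 6.69e-05, lost with the 75th percentile at 0.33), with both probes of each called. RB1, which holds back entry into S phase, differed by -0.54 ± 0.09 (adjusted p = 2.33e-06).

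Markers of other cell types give the make-up of the tissue against which these values stand. The enterocyte list had 1 of 15 genes higher and 0 lower (median 0.03), but 2 higher and 6 lower with the 75th percentile (median -0.24). Of the other lists, smooth muscle had 2 of 14 higher and 0 lower, fibroblasts and matrix 2 of 20 and 2, endothelium 3 of 11 and 0, and neurons and glia 1 of 9 and 1. Erythrocyte markers had the largest share of higher genes among the marker lists, with 6 of 10 higher, 2 lower and a median of 0.62. With each pool left out in turn, 4 to 7 of them were higher and 2 lower, with medians of 0.53 to 0.66. The summed level of the erythrocyte markers ranged from 14.2 to 15.2 in line Y (median 14.7) and from 13.6 to 14.2 in line X (median 13.99). Liver markers had 2 of 7 higher and 0 lower, with a median difference of -0.24. Their summed level ranged from 12.3 to 13.2 in line Y (median 12.85) and from 11.5 to 13.8 in line X (median 12.05). Goblet, Paneth and stem cell markers had 2 of 6 higher and 1 lower. HBBA, a beta globin, had a median of 13.50 (12.91 to 13.998) in line Y and 12.51 (11.95 to 12.72) in line X, with 3 of 3 probes called and no overlap (difference 1.00 ± 0.22, adjusted p = 0.000192), while the erythroid membrane gene RHAG was lower, at -0.92 ± 0.20 (adjusted p = 0.000185). PRDX1, SOD1 and SELENOW are also made by blood cells, and the part of blood in their differences was not tested. Pancreatic amylase, AMY1A, had a median of 7.097 (6.78 to 7.403) in line Y and 8.01 (7.91 to 8.22) in line X. It was lower in every line Y pool (difference -0.92 ± 0.28, adjusted p = 0.00519). The other of the 2 pancreatic genes tested, CELA1, was not called and lay between 0.04 and 0.28 over the alternatives. HINTW, of the female-specific W chromosome, lay between 15.09 and 15.82 in 6 line Y pools and at 13.54 in pool 7, and between 15.21 and 15.69 in line X. Of the 3 W chromosome genes tested 1 was called, HNRNPKL. It was higher in line Y with every probe, at 0.57 to 1.27 over the alternatives. The labels do not give the sex of the birds, and the sex mix of the pools was not tested.

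Where probes of a gene disagree, the gene level hides values that differ between its probes. NUF2, of the kinetochore, had 1 probe between 2.84 and 4.04 in line Y and between 10.89 and 11.45 in line X. This probe was not above background in any line Y pool and fell in line Y by at least 144-fold, while another probe stood at 0.07 ± 0.07 (adjusted p = 0.395). ARHGEF39 had 1 probe at least 29.9-fold higher in line Y and 1 at -0.36 ± 0.17 (adjusted p = 0.0723). CDIN1 had 1 probe at least 24.3-fold higher and 3 others at 0.27, -0.04 and -0.52. These genes, together with DARS, had the widest spread between probes, and 3 of the 4 were not called.

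EPHB2, a receptor of crypt cells, had 1 probe at least 23.7-fold higher and 1 at 0.23 ± 0.17. CCK, the hormone cholecystokinin, had 1 probe at 3.81 ± 0.23 and 1, bright in both lines, at 0.24 ± 0.12 (adjusted p = 0.093). PMPCA, which processes imported mitochondrial proteins, had probes at 2.69 ± 0.14 and 0.15 ± 0.12. All 3 genes passed as called, since both probes pointed the same way, but each rests on a single probe. Over the 2372 genes with 2 or more probes the median range between the probes of a gene was 0.48, with 431 genes above 1 and 124 above 2.

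**Figure D4:**
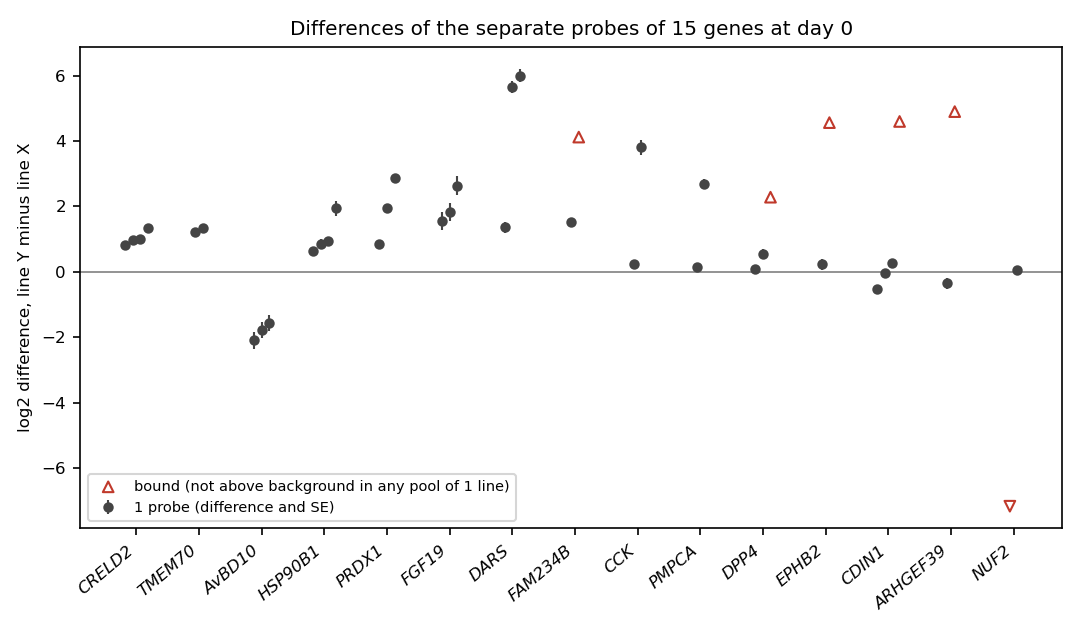
Line difference at day 0 (log2, line Y minus line X) of each kept probe of 15 genes as a dot with its standard error as a bar, and as an open triangle at the bound where a probe was not above background in any pool of 1 line. The probes of TMEM70, CRELD2 and AvBD10 lie close together, and NUF2 has 1 probe at 0.07 and 1 that fell in line Y by at least 144-fold.

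The comparisons at days 4 and 16 used other pools. Calls on these days used the mean of the probes, without the demand that all kept probes share the direction. Of all genes 10.8 % were higher and 7.19 % lower in line Y at day 4, and 12.8 % and 13.7 % at day 16. Without that demand, 714 genes were higher and 491 lower at day 0. Of the 122 genes higher at hatch with every probe, 67 were also higher at day 4 and 1 was lower, and 31 were higher and 10 lower at day 16. Their median differences on days 0, 4 and 16 were 0.86, 0.41 and 0.12. Of the 79 genes lower at hatch with every probe, 27 were also lower at day 4 and 0 higher, and 25 were lower and 4 higher at day 16. Their medians were -0.69, -0.26 and -0.24. The genes were chosen by their difference at day 0, which by itself favours larger values on that day.

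Tested against each other in limma, the line differences of day 0 and day 4 were unequal in 958 genes (25.6 %), and those of day 0 and day 16 in 1970 (52.7 %). Among the 20 genes with the largest agreeing differences, the difference had changed in 13 by day 4 and in 18 by day 16. WNT11, at -1.23 at hatch, was at 0.04 on day 4 and 0.04 on day 16. FGF19 was at 2.01, 0.79 and 0.43 on days 0, 4 and 16, and SH3GLB1 at 1.498, 0.32 and -0.73. AvBD10 stayed lower at day 4, at -1.58 (adjusted p = 3.91e-07), and was at 0.10 on day 16 (adjusted p = 0.714). LYZ was at -1.13, -1.07 and -1.15, and SLC24A2 at -1.73, -1.41 and -1.19, called on all 3 days.

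The functions above can be followed in the same way. PRDX1 was at 1.88, 0.93 and -0.13, SOD1 at 1.19, 0.63 and -0.23, and HSP90B1 at 1.09, 0.19 and 0.07 on days 0, 4 and 16, and the difference of each had changed by day 4 (adjusted p = 3.07e-06, 0.00134 and 1.85e-06). The antioxidant list had 13, 11 and 3 genes higher and 2, 2 and 11 lower on these days, with medians of 0.28, 0.14 and -0.15. The demand that probes share the direction applied to the day 0 counts only. It took out 1 gene of the antioxidant list and 0 of the lymphocyte and of the cholesterol list. The lymphocyte list had 2, 3 and 4 genes higher and 10, 2 and 4 lower, and its medians were -0.33, -0.02 and -0.01. CD5 was at -1.28, 0.05 and 0.67, a change already by day 4 (adjusted p = 3.15e-06). Cholesterol and fatty acid synthesis had 0, 1 and 5 genes higher and 6, 5 and 2 lower, with medians of -0.18, -0.15 and 0.18. MT4 was at 3.47, 2.50 and -1.23, EREG at 3.62, 2.17 and 0.08, and CHIA at -3.10, -2.45 and -1.16. BLB1, at -0.83, -1.24 and -3.37, was lower in line Y on all 3 days, and its difference was larger at day 16 than at day 0 (adjusted p = 7.16e-14). MRPS6 was at 1.17, 1.24 and 1.28, and PRLR at 0.94, 0.94 and 0.67, both higher in line Y on all 3 days.

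**Figure D5:**
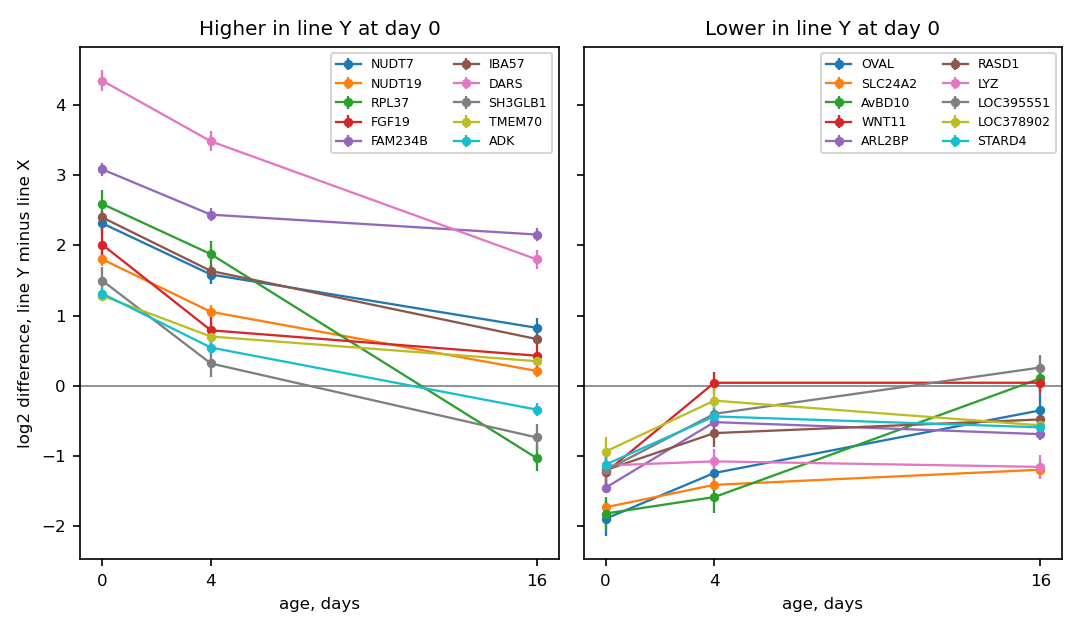
Line difference (log2, line Y minus line X) at days 0, 4 and 16 for the 20 genes with the largest agreeing differences at hatch, with standard errors as bars. SLC24A2 and LYZ stay below 0 on all 3 days, WNT11 is at 0.04 from day 4 on, and RPL37 is at -1.03 on day 16, and the values of FAM234B average in a probe not above background in line X at day 0.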

How the data were processed

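Deposited data comprised scanner output with the raw intensity and local background of every spot, and 1 table of log2 values that the authors had made with limma (R version 3.0.2, per the submitters' processing notes) with normexp correction for background (offset 1), followed by quantile normalization and by the mean of duplicate spots. The log2 values were used as deposited, and repeating these steps on the deposited intensities gave values that differed by at most 5e-09. Intensities also gave brightness, saturation and the calls above background. Arrays have no read depth, and the number of pools limits the precision.

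Probes were kept when they exceeded 1.1 times the highest dark corner spot (log2, per array) in every array of at least 1 of 6 groups, which left 25527 of 43603 probes. The methods do not state the scale of this limit. Names came from RefSeq accessions of the array design through the gene table of assembly GRCg7b, which covered 7824 kept probes and 3740 genes. No sequences were used here.

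Line Y was compared with line X by lmFit and eBayes (limma version 3.58.1, R version 4.3.3, data.table version 1.17.8) over all 45 arrays in 6 groups, two-sided, with Benjamini-Hochberg adjustment over all probes or genes and thresholds of 0.05 on the adjusted p and 1.3 on the fold change. The script was tested on simulated data. Interactions between line and day were contrasts of the same fit.

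The rule named the 10 higher and 10 lower genes with the largest weakest probe among genes whose 2 or more probes all passed, up to 2 genes per list and direction, the 4 genes with the widest spread of probes, up to 3 brightest markers per cell type, and IL8L2. Other genes are named after their values were seen. Members and lists were chosen with earlier results of these data known. Alternatives changed the scaling together with the correction for background, the offset, filter, probe summary, thresholds and pools, and the pool number was tried as a block.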

Additional observations from a re-analysis of the deposited data

Results flagged for a closer look

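Single pools stood apart from the other 6 of their group for 32 values of the named genes, genes with a saturated level in all pools of a line left out, and 35 of 446 groups (7.85 %) did so in all, where chance gives about 1 in 20. In line Y, pool 4 stood apart for ACSL5 at 13.6, CDX4 at 6.82, HADHA at 11.2, HNF4A at 10.1, P4HB at 10.97, OLFM4 at 9.69 and POSTN at 7.14. Pool 3 of line Y stood apart for ACTG2 at 15.5, BG8 at 11.98, MED20 at 10.4 and SLC46A1 at 9.33, and the other ACTG2 values of line Y were at the ceiling of the scale, 16, and have no order. The other line Y pools were pool 8 for AvBD8 at 6.71 and FCER1G at 9.42, pool 7 for HINTW at 13.5 and pool 5 for MRPS11 at 13.1.

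In line X, pool 5 stood apart for CCL4 at 11.4, ALDH1A1 at 12.8, BCL6 at 10.5, BET1 at 5.42, GATA3 at 10.5, HP1BP3 at 7.68 and UGDH at 9.99. Pool 3 of line X stood apart for CD28 at 6.49, ADAM10 at 11.1, LMO2 at 9.64, NDUFS1 at 11.97, NFE2L2 at 8.60, MERTK at 10.5 and PSMA7 at 10.9, pool 4 for E2F4 at 4.57 and MT4 at 6.69, and pool 2 for CD74 at 13.7.

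The line difference itself changed with age for most genes with the largest agreeing differences, in limma at an adjusted p under 0.05. These genes were chosen by their difference at day 0, which by itself favours such a change. Over all genes tested, the line difference changed in 25.6 % against day 4 and in 52.7 % against day 16. FAM234B averages in a probe that was not above background in line X at day 0. Values are the difference at day 0 minus that of the later day, on the log2 scale. Against day 4, DARS gave 0.86, FAM234B 0.64, FGF19 1.22, IBA57 0.76, NUDT7 0.73, NUDT19 0.75, SH3GLB1 1.18, TMEM70 0.58 and ADK 0.77, and of the lower genes ARL2BP gave -0.93, LOC395551 -0.80, STARD4 -0.68 and WNT11 -1.28. Against day 16, DARS gave 2.54, FAM234B 0.93, FGF19 1.58, IBA57 1.73, NUDT7 1.49, NUDT19 1.59, RPL37 3.62, SH3GLB1 2.23, TMEM70 0.93 and ADK 1.65. Among the lower genes the values against day 16 were -0.76 for ARL2BP, -1.92 for AvBD10, -1.46 for LOC395551, -1.54 for OVAL, -0.72 for RASD1, -0.53 for SLC24A2, -0.53 for STARD4 and -1.28 for WNT11.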

How the results depend on the processing

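The threshold on the fold change moved the counts most. At a fold change above 2 there were 2025 different probes (1428 higher and 597 lower in line Y) and 180 genes (133 higher and 47 lower). Without a fold threshold there were 1635 genes, of which 776 were lower. Only genes with 2 or more probes gave 537 genes, 343 higher and 194 lower, and 357 genes were higher when every probe had to pass both thresholds.

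With each pool left out in turn, different genes numbered 965 to 1121 (519 to 627 higher, 446 to 494 lower), different probes 9163 to 10184 (4552 to 5106 higher, 4611 to 5078 lower), genes whose line difference changed between day 0 and day 4 773 to 1089, and those changed between day 0 and day 16 1892 to 1986. The lowest gene count was that without line X pool 5. Of the 1054 genes called, 800 were shared when signals were scaled to the 75th percentile, 902 with an offset of 50 and 872 without the filter, and 0 were called in the opposite direction there. With line X pools 3 and 5 and line Y pool 4 left out together, an alternative chosen after seeing the data, 995 genes were different and 940 were shared.

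The main fit did not pair arrays by pool number. Deviations of equally numbered pools correlated above 0.1 in 4 of 7 pairs (range -0.262 to 0.196), which does not settle whether the pools were paired. With the pool number as a replicate block 1064 genes and 9824 probes were different, 585 genes higher and 479 lower, and the changes against day 4 and day 16 were 1094 and 2055 genes. MX1 and UQCR11 were no longer called.

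Without the filter on dim probes ALDH1A2 was at 0.0105 and ORC5 at 0.0154. With the 75th percentile, APOA4 was at -0.84 and FABP2 at -0.62, both on saturated probes. Over the named genes and alternatives 4582 values kept their side of the threshold, 284 lost the call and 5 gained it. Another 4 changed sign with a call in the main or the alternative fit. Sign changes between values that were not called are counted among the 4582. Of the list medians 726 moved less than the spread between pools and 44 more. Of the genes called above, the 75th percentile ended the calls of ALDH1A2, AXIN2, CATH1, CCT4, EARS2, FZD6, GAL, LEAP2, MRPS11, MX1, NDUFA9, PCNA, PDIA3, PSMA2, PSME4, PTPRC, SELENOT, SELENOW, SLC7A9, SOD2, TAP2, TLR3 and VIP, the offset of 50 those of ALDH1A1, ALDH1A2, CCL4, CCR8, IL8L2, JCHAIN, MX1, PTPRC, TAP1, TAP2, THRSP and TLR1A, and the absence of the filter those of ACACA, AvBD8, BCL6, BG8, CATH1, CCL4, CCR8, CD28, CD5, CD86, F2, FAM234B, FZD6, HSPA13, IL8L2, KPNA1, LMX1A, PSME4, STAT5A and TLR1B, besides ALDH1A2. The brightest probe alone ended those of ALDH1A2, AXIN2, BCL6, CATH1, CCK, CCT4, CCT7, DPP4, EPHB2, GAL, GSTA4, HSPA13, NDUFA9, NDUFS1, P4HB, PMPCA, PSMA2, TAP1, TAP2, TLR1A and VIP, a limit passed on all 14 arrays those of ALDH1A2, AXIN2, CCK, DPP4, EPHB2, GSTA4, TAP1 and TLR1A, the 3 pools left out together those of ALDH1A2, CATH1, CATH2, CCL4, DPP4, FABP4, IL8L2, JCHAIN, LEAP2, MX1, TAP2 and THRSP, and a fit on the 14 arrays alone those of CCL4 and MX1. Without the filter the probes of BCL6, BG8, CD28, CD5, CD86, F2, FAM234B, FZD6, KPNA1 and LMX1A no longer all pointed in the same direction, which a call requires. The same demand ended the calls of AXIN2, NDUFA9, PSMA2 and TAP2 with the 75th percentile and of DPP4 with the 3 pools left out, since their values still passed both thresholds. In the other losses listed here the value no longer passed the threshold on the adjusted p or on the fold change. A gene with no probe past the limit on all 14 arrays was not tested in that alternative, so its call could be neither kept nor lost. Of the genes called above these were NUDT7, IBA57, OVAL, WNT11, LOC395551, MT4, EREG, TMBIM4, CHIA, PIWIL1, USP33, LMX1A and AvBD8. They also included LECT2, CD86, CD28, CTLA4, PTPRC, GZMA, LCP2, JCHAIN, CCR8, TNFSF15, IL8L2, CATH2 and RHAG.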
